A study of Mus musculus with 40 samples.

Results

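The loci examined were the 7 mouse genes that encode the ligands, receptors and co-receptors of vascular endothelial growth factor (VEGF) signalling for which the fragment screen was searched. They comprised the ligands *Vegfa* and *Vegfc*, the receptor tyrosine kinases *Kdr*, *Flt1* and *Flt4*, and the neuropilin co-receptors *Nrp1* and *Nrp2*. A cloned DNA fragment was assigned to a locus when its centre lay in the RefSeq gene body on mm10 or within 25 kb of it. Of the 458450 fragment entries on chromosomes in the 40 deposited lists, 687 were assigned in this way, and they represented 536 distinct fragments. An entry is 1 fragment in 1 list, so a fragment found in several lists is counted in each. Fragments that overlapped were merged into regions, which gave 66 regions at the 7 loci among 75043 genome-wide.

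The screen was carried out in HM-1 mouse embryonic stem cells (129/ola), in which *Hprt* is not functional and is repaired when a reporter integrates there. Open-chromatin fragments cut by Tn5 transposase were placed in front of an HSP68 minimal promoter and a Venus-YFP reporter, with a single construct per cell. All groups carried the same reporter with a mixed pool of fragments from the 5 stages, and the Negative gate was set with a reporter line that had no cloned fragment. Each of the 5 stages was sorted by YFP level into the Negative, Low, Medium and High gates in 2 replicates, giving 20 groups of 2 libraries. The stages were undifferentiated cells (ES), FLK1+ hemangioblast cells (HB), KIT+ TIE2+ CD41- hemogenic endothelium (HE1), KIT+ TIE2+ CD41+ hemogenic endothelium (HE2) and KIT+ TIE2- CD41+ progenitors (HP). Per the methods, ES cells were kept in serum with LIF, HB cells were purified from embryoid bodies grown in serum, and HE1, HE2 and HP came from a later blast culture of HB cells, the step to which VEGF and IL-6 were added. A sort is 1 stage of 1 replicate, and the positive pool of a sort is every distinct fragment in its Low, Medium or High list. The lists hold positions of DNA and no RNA, so the labelled cell types could not be checked against marker genes. The labels tell replicates apart by number alone, so the spread between these libraries may be technical. The p-values for stages measure only that spread. Those that compare gates treat the fragments of a sort as independent and cover counting error alone.

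VEGFA binds the receptors FLT1 and KDR, and VEGFC binds FLT4 and, after processing, KDR. KDR, also called FLK1, carries most of the proliferative and migratory signal in endothelium, whereas FLT1 binds VEGFA tightly, signals weakly and limits the ligand available to KDR. FLT4 is best known from lymphatic endothelium, and the neuropilins are co-receptors that hold VEGF at the receptor complex and also bind class 3 semaphorins. FLK1 is required for the first blood and endothelial cells of the embryo, and its protein was the surface marker used here to purify HB cells.

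The leading element of each locus, the region with the most entries, is given here as the 300 bases of mm10 (plus strand, 5′ to 3′) centred on the base that the most fragments covered, because it was the largest single contributor to the counts of its locus. The *Nrp2* regions of 66 and 56 entries and the other *Flt1* regions are not shown. Capitals mark matches, on either strand, to the consensus letters of transcription factor motifs, which were searched as follows. AP-1 was TGACTCA, RUNX was TGTGGTT with the last base T or C, and PU.1 was GAGGAAGT. The ETS motif was AGGAAGT with the first base A or C, the GATA motif was AGATAAG, and TEAD was GGAATGT with the last base T or C. For SOX the letters were ACAAAGG with the fifth base A or T, for the E-box they were CAGCTG and for RBPJ they were TGGGAA. FOX was searched as TGTTTAC with the second base G or A, HIF as ACGTG with the first base A or G, and CTCF by its longer consensus. The PU.1 letters contain an ETS match, so each PU.1 match is also an ETS match. The leading region of *Vegfc* held 1 fragment and its sequence is not shown.
Kdr intron 10 (chr5:75962221-75962520): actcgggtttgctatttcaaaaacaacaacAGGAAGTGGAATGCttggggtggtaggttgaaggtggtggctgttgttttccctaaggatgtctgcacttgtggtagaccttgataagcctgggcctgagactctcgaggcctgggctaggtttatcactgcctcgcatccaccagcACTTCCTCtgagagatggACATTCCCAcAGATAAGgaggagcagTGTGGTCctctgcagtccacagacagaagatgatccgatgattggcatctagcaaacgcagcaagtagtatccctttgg
Flt1 intron 10 (chr5:147657893-147658192): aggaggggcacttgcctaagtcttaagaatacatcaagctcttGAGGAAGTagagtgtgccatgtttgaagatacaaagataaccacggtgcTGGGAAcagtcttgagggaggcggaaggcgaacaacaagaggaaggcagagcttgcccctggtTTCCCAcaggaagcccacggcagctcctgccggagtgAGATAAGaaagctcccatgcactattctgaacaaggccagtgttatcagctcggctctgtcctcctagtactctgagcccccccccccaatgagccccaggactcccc
Flt4 intron 11 (chr11:49632325-49632624): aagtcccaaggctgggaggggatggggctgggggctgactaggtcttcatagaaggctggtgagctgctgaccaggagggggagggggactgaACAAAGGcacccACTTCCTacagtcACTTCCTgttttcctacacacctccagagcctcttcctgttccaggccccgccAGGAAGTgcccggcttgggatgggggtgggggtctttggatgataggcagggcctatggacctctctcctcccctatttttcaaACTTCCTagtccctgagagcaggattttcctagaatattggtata
Nrp1 upstream (chr8:128357176-128357475): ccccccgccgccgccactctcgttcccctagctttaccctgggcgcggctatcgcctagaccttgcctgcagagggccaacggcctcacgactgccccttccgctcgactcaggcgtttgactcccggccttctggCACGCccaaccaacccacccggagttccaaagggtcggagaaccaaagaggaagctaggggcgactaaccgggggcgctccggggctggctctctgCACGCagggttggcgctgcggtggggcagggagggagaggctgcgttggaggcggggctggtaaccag
Nrp2 distal upstream (chr1:62678647-62678946): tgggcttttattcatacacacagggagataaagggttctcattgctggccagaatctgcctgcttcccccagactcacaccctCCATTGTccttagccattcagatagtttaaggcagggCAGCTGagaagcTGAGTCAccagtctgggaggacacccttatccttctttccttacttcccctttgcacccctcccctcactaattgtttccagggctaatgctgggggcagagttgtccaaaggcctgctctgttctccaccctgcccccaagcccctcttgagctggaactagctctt
Vegfa intron 6 (chr17:46021360-46021659): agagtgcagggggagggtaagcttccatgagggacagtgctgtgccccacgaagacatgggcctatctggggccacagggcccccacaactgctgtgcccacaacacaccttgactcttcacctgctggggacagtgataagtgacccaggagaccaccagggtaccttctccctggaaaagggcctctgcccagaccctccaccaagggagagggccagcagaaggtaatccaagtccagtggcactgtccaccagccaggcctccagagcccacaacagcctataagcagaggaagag

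The *Kdr* window held 8 matches to 6 of the 12 motifs searched. Counted from 1 at the left end, an ETS match at bases 31 to 37 abutted a TEAD match at 38 to 44. A tighter group followed, with an ETS and PU.1 match ending at base 185, a TEAD match at 196 to 202 that overlapped an RBPJ match at 199 to 204, a GATA match at 206 to 212 and a RUNX match at 222 to 228. The *Flt1* window held 5 matches, to PU.1, ETS, RBPJ and GATA. The *Flt4* window held 4 ETS matches and 1 SOX match. The *Nrp2* window held an E-box at 121 to 126, an AP-1 match at 133 to 139 and a SOX match at 84 to 90. The *Nrp1* window had a GC content of 68.3% and held only 2 HIF letter matches, and the *Vegfa* window, which reaches past both ends of a region of 241 bp, held none. Over the 8 member regions with at least 20 entries, GATA letters were found in 2, against 5.98% of the 300-base windows of all regions and 8.45% of those of the 5742 regions with at least 20 entries. ETS letters were found in 2, against 13.6% of all regions and 18.9% of the larger ones. With both shares given in that order, RBPJ letters were found in 5 (28.4% and 29.0%), E-box letters in 2 (19.9% and 26.2%) and PU.1 letters in 2 (3.68% and 5.05%). AP-1 (10.1% and 15.8%), RUNX (13.1% and 13.0%), TEAD (9.76% and 10.8%), SOX (12.5% and 12.9%) and HIF (29.2% and 40%) letters were found in 1 each, and FOX (6.86% and 4.67%) and CTCF (3.02% and 9.21%) letters in none. These are letter matches in the reference and were not tested as binding sites.

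The loci differed widely in how many fragments they held. *Nrp2* had 236 entries, *Nrp1* 157, *Flt1* 144, *Kdr* 104, *Flt4* 21, *Vegfa* 21 and *Vegfc* 4. Counted per length of the window, *Nrp2* held 140 fragments per 100 kb, *Kdr* 106, *Nrp1* 78.9, *Flt1* 65.3, *Vegfa* 30.6, *Flt4* 22.6 and *Vegfc* 2.52. The median over the 21195 gene loci with a fragment was 17.7 per 100 kb. *Nrp2* thus stood above 91.8% of those loci, *Kdr* above 87.5% and *Vegfc* above only 15.7%. Of the 40 libraries, 35 held at least 1 fragment from the loci, and the number per library ran from 0 to 82 with a median of 8.50.

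Depth and replicate shaped these numbers. A list held 654 to 51146 entries, with a median of 7947, and replicate 1 supplied 78.8% of all entries and 87.6% of those at the loci. The positive pools of the 10 sorts held 3470 to 101943 fragments and the Negative gates 2726 to 41374. In HE1 of replicate 1 the Negative and Medium lists shared 69.8% of the Negative fragments, and at the loci 46 of the 67 Negative fragments of that sort were also in the Medium list. In HP of replicate 1 no fragment was shared between any gates. When fragments that a sort held in both pools were removed, positive fragments over those expected came to 1.03 at *Kdr*, 0.960 at *Flt1*, 0.932 at *Nrp1* and 0.979 at *Nrp2*, and no member was called. Fragments were counted after PCR without molecular identifiers, so all intervals cover counting error only.

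The fragments were concentrated in a few elements. The 8 regions with at least 20 entries, 591 to 915 bp long, held 469 entries, or 68.3% of the total. *Kdr* contributed 1 of them, *Flt1* 3, *Nrp1* 1 and *Nrp2* 3, and 5 lay in introns and 3 upstream of the gene. Of the remaining regions, 27 of the 66 held a single entry, or 40.9%, against 55.0% of regions genome-wide. Only 1 member entry lay within 1500 bp of a start site, and of all entries 1.84% did, so the lists hold mostly distal fragments. The study also screened promoter fragments, but they are largely absent from these lists, so the promoters themselves are not described here. No curated gene other than the named one lay at the most covered base of any member region. The windows of *Flt1*, *Nrp1* and *Nrp2* each reached into 1 other curated gene and that of *Flt4* into 3, while those of *Kdr*, *Vegfa* and *Vegfc* reached into none.

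**Figure D1:**
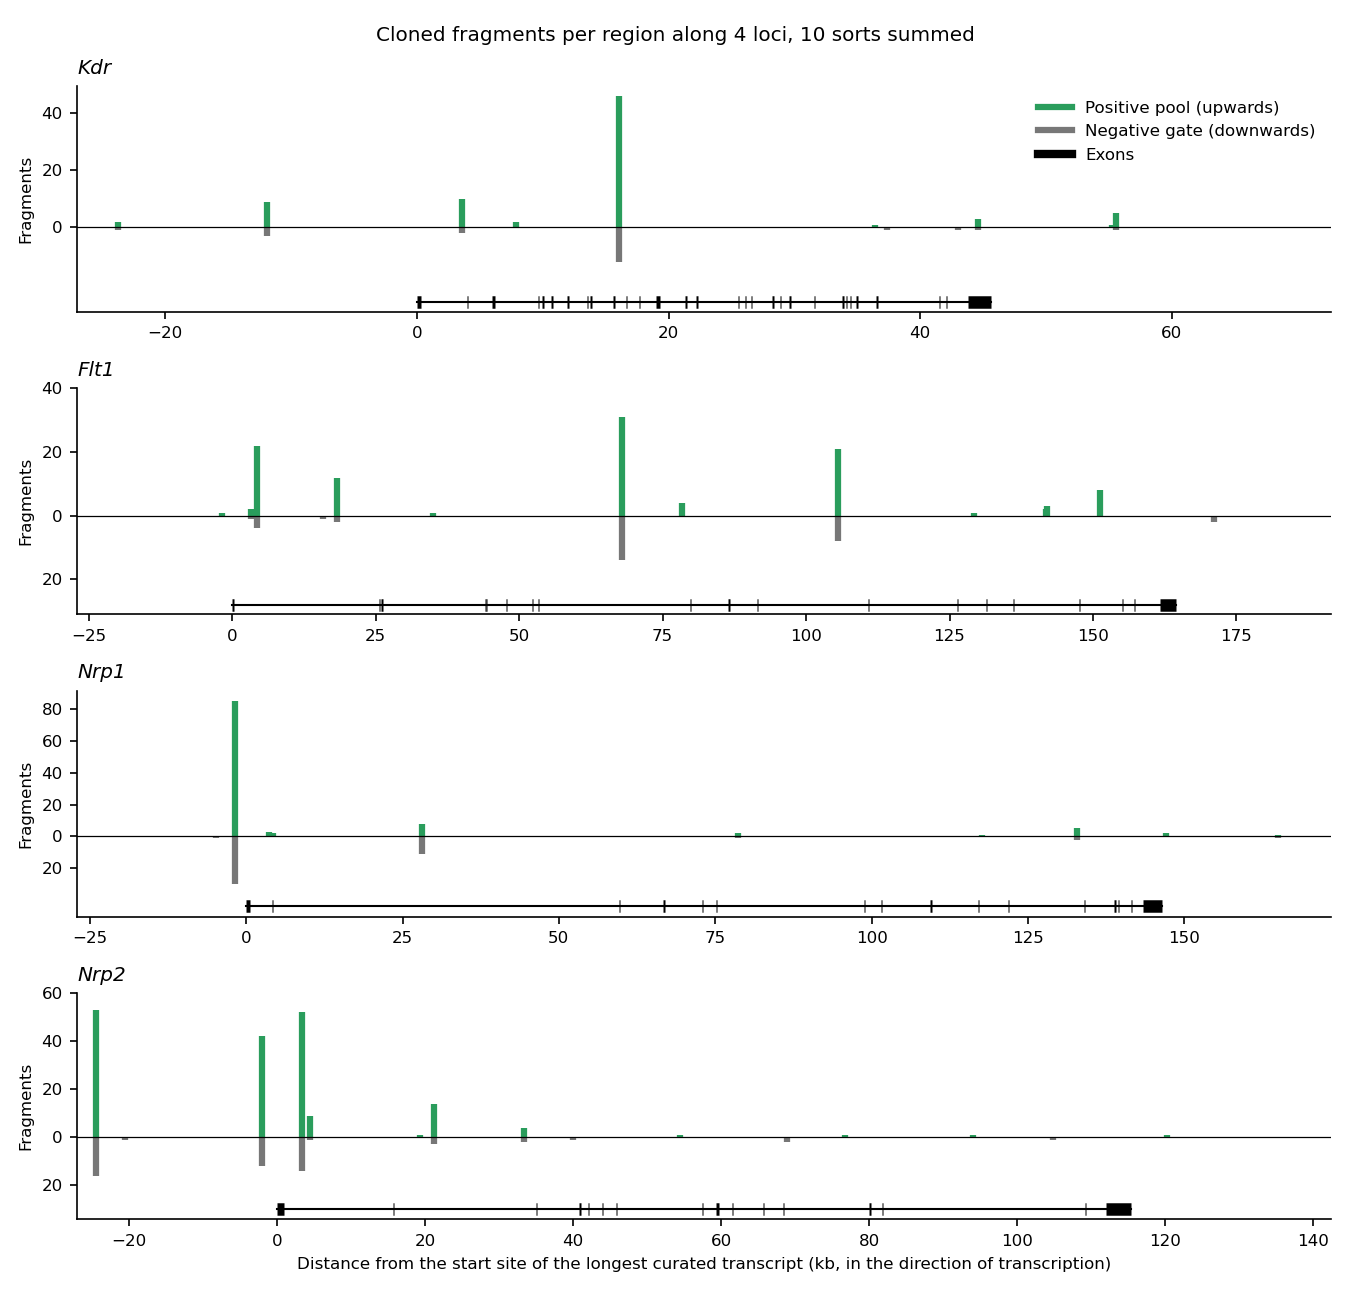
Fragments per region (vertical axis, number of fragments) against distance from the start site of the longest curated transcript (horizontal axis, kb) at Kdr, Flt1, Nrp1 and Nrp2, with all 10 sorts summed; bars upwards are the positive pool, bars downwards the Negative gate, and the black line with boxes is the transcript with its exons. Kdr had 1 tall region 16.1 kb into the gene with 46 positive and 12 Negative fragments, whereas Flt1 and Nrp2 each had 3 large regions.

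*Kdr* occupies chr5:75932827-75978455 on the minus strand. Its leading element lay in intron 10 of a transcript with 30 exons, 16.1 kb from the start site, at chr5:75962049-75962902, and held 59 of the 104 entries. It comprised 44 distinct fragments in 17 libraries. In replicate 1 its positive pool held 0 fragments in ES, 7 in HB, 18 in HE1, 17 in HE2 and 3 in HP. In replicate 2 it held 1 positive fragment, in HP, and 1 Negative fragment, in HB. The element was therefore seen in HB, HE1, HE2 and HP and in no ES library, and almost all of its fragments came from replicate 1. The first intron of *Kdr* has long been used as an endothelial enhancer in reporter mice. A region of 12 entries lay in intron 1 here, 3.5 kb from the start site, with 10 positive and 2 Negative fragments, all from replicate 1 and all in HE1 and HE2. Of its entries, 7 were in High lists, 3 in Medium and 0 in Low. A further region 11.9 kb upstream held 13 entries, with 9 positive and 3 Negative fragments.

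Over the whole *Kdr* locus, the positive pool of replicate 1 held 2 fragments in ES, 7 in HB, 35 in HE1, 29 in HE2 and 4 in HP. Per 10000 positive fragments these were 0.722 (95% Wilson interval 0.198 to 2.63), 1.80 (0.871 to 3.71), 3.43 (2.47 to 4.77), 4.24 (2.95 to 6.09) and 1.01 (0.392 to 2.59). The interval of HE2 lay above those of ES and HP in that replicate and overlapped those of HB and HE1. In replicate 2 the same pools held 0, 1, 0, 0 and 1 fragments, and the counts of 0 allowed up to 3.33 per 10000 in ES, 0.862 in HE1 and 8.65 in HE2. The HE1 level of replicate 1 was therefore within the depth of replicate 2 and was not seen there, whereas the HE2 level was not detectable at that depth. The Negative gate of replicate 1 held 0 fragments in ES, 1 in HB, 12 in HE1, 3 in HE2 and 2 in HP, or 0, 1.19, 2.90, 3.56 and 2.36 per 10000. Its count of 0 in ES allowed 2.90 per 10000 and its HE2 interval was 1.21 to 10.5, so these stages could not be ranked.

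*Flt1* occupies chr5:147561604-147726011 on the minus strand and had elements spread along its introns. The largest lay in intron 10, 68.0 kb from the start site (chr5:147657723-147658386), with 31 positive and 14 Negative fragments. The next lay in intron 14, 105.6 kb from the start site (chr5:147619902-147620585), with 21 positive and 8 Negative fragments, and the last of the 3 in intron 1 at 4.4 kb (chr5:147721290-147721915), with 22 and 4. Their ES positive counts were 0, 1 and 0, their HB counts 9, 0 and 0, and their HE1 counts 10, 10 and 10. Replicate 2 contributed 1 entry to the first and none to the other 2. A smaller region in intron 25 held 8 positive and 0 Negative fragments, 7 of its 9 entries being in High lists. Over the locus, the positive pool of replicate 1 held 4 fragments in ES, 11 in HB, 37 in HE1, 35 in HE2 and 13 in HP, or 1.44, 2.82, 3.63, 5.11 and 3.28 per 10000. In replicate 2 the counts were 2, 1, 5, 0 and 0.

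*Flt4* occupies chr11:49609679-49652739 on the plus strand. Its leading region lay in intron 11, 22.8 kb from the start site (chr11:49631920-49632882), and its 12 entries were 12 different fragments, all from replicate 1. It held 7 positive fragments in HE1, 4 in HE2 and none in the other stages, against 1 Negative fragment, in HE1. Each of the other 6 regions held 3 entries or fewer. ES and HP held no positive fragment of the locus in either replicate, and in replicate 1 a count of 0 allowed 1.08 per 10000 in ES and 0.756 in HP, compared with 0.785 measured in HE1 and 0.585 in HE2. The bound in ES lay above both of these levels, and the bound in HP lay above that of HE2 and just below that of HE1, whose own interval was 0.398 to 1.55.

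The co-receptor *Nrp1* occupies chr8:128359073-128505476 on the plus strand. Its leading element was the most populated of all member regions, with 117 entries (83 distinct fragments in 25 libraries) at chr8:128356716-128357630, 1.7 kb upstream of the start site. Its positive pool in replicate 1 held 14 fragments in ES, 16 in HB, 27 in HE1, 12 in HE2 and 11 in HP, and its Negative gate 5, 2, 15, 4 and 3. In replicate 2 it held 1 positive fragment in ES, 0 in HB, 2 in HE1, 1 in HE2 and 1 in HP. It was present in all 5 stages, unlike the *Kdr*, *Flt1* and *Flt4* leading regions. Among regions with at least 20 entries, 62.8% genome-wide and 4 of the 8 at these loci (50.0%) were present in all 5 stages. The second region of the locus, in intron 2 at 28.1 kb, was unusual in its replicate, with 15 of its 19 entries from replicate 2 and 11 Negative against 8 positive fragments. Over the locus the positive pool of replicate 1 held 16, 18, 30, 17 and 14 fragments from ES to HP, or 5.77, 4.62, 2.94, 2.48 and 3.53 per 10000.

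The co-receptor *Nrp2* occupies chr1:62703317-62818692 on the plus strand and had 3 elements of similar size. The distal one lay 24.5 kb upstream (chr1:62678430-62679240) and held 69 entries with 53 positive and 16 Negative fragments. The region in intron 1, 3.4 kb downstream of the start site (chr1:62706363-62707173), held 66 entries with 52 and 14. The region 2.1 kb upstream (chr1:62701039-62701629) held 56 entries with 42 and 12. Only 1 of these entries came from replicate 2. All 3 were present in every stage, as were 62.8% of all regions with at least 20 entries. They held 6, 9 and 7 positive fragments in ES and 16, 17 and 14 in HE1. The distal region lies at the edge of the window used here, and the nearest fragment outside it, 37.8 kb from the gene, belonged to a region of 59 entries. Over the locus the positive pool of replicate 1 held 23, 28, 57, 38 and 27 fragments from ES to HP, or 8.30, 7.19, 5.59, 5.55 and 6.81 per 10000, and that of replicate 2 held 6, all in HE1.

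The 2 ligand loci had few fragments. *Vegfa* occupies chr17:46016993-46032377 on the minus strand, and all 21 of its entries came from replicate 2. Replicate 1 gave none among 276711 positive fragments. Of its 16 positive fragments, 13 were in the Low list of HE1. That list was by far the longest of replicate 2, with 31902 entries against 654 to 5929 in its other positive lists. Its leading region, in intron 6 (chr17:46021397-46021637, 10.9 kb from the start site), held 13 entries, 7 distinct fragments in 7 libraries, and 10 positive and 2 Negative fragments. The nearest fragment beyond the window, 31.0 kb from the gene, belonged to a region of 30 entries, and a window of 50 kb would take in 94 more entries. *Vegfc*, chr8:54077532-54186454 on the plus strand, held 4 regions of 1 entry each, 3 of them positive, and was too sparse to be tested. No fragment lay between 25 and 50 kb from it.

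**Figure D2:**
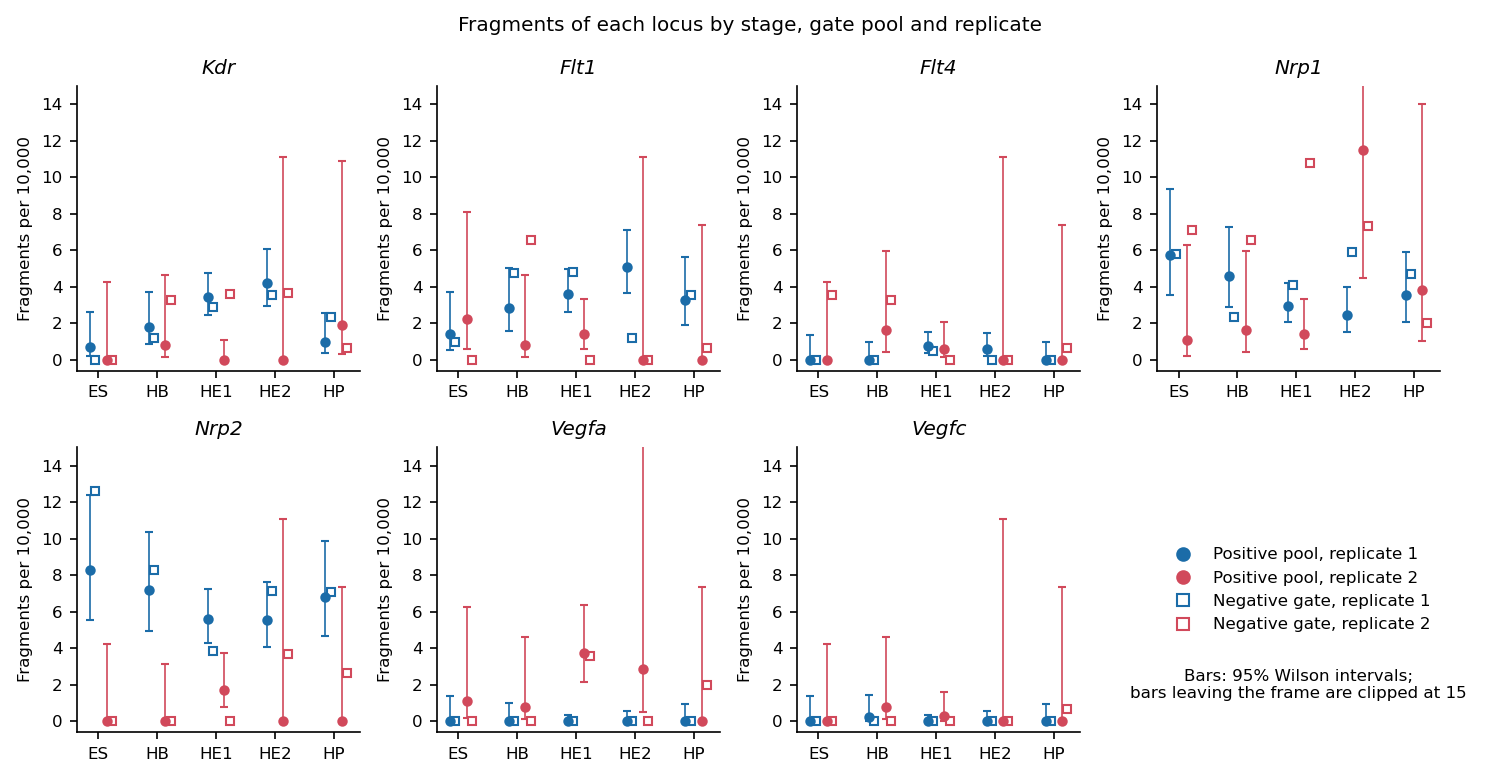
Fragments per 10000 fragments of the pool (vertical axis) by stage (horizontal axis) at the 7 loci; filled circles are the positive pool with 95% Wilson intervals, open squares the Negative gate, blue replicate 1 and red replicate 2. In replicate 1 Kdr ran from 0.722 in ES to 4.24 in HE2 and Nrp2 lay between 5.55 and 8.30 in all stages, while Vegfa points above 0 are from replicate 2 alone.

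The 8 large regions thus fell into 2 patterns by inspection of their ES counts alone. Replicate 2 supplied only 10 of their 469 entries, so the patterns describe replicate 1 and were not seen to recur. In HB of replicate 1 the positive counts were 7 at *Kdr* intron 10, 9 at *Flt1* intron 10 and 0 at *Flt1* introns 14 and 1. In ES of replicate 1 a count of 0 allowed 1.08 per 10000. The HE1 levels of the *Flt1* regions in that replicate lay below this bound, at 0.883 in intron 10 and 0.981 in introns 14 and 1. Their HE2 levels, 1.17 each, lay just above it. At the 4 large *Kdr* and *Flt1* regions, 1 of 120 positive fragments was from ES, and at the 4 large *Nrp1* and *Nrp2* regions 37 of 232 were, while ES supplied 10.8% of all positive fragments. The Negative fragments gave no separate check of this division. No Negative fragment of the 4 *Kdr* and *Flt1* regions was from ES, out of 12 at *Kdr* intron 10, 14 at *Flt1* intron 10, 8 at intron 14 and 4 at intron 1. ES supplied 6 of the 30 at the *Nrp1* element and 3 of 16, 7 of 14 and 3 of 12 at those of *Nrp2*. At the *Kdr* and *Flt1* regions, in the order above, HE1 of replicate 1 supplied 8, 8, 8 and 3 of the Negative fragments. Of all Negative fragments of that sort, 71.3% were also in its positive pool. Its Negative gate held 41374 fragments, against 10352 in ES of replicate 1 and 2813 in ES of replicate 2. The presence of a fragment in a stage varied in both pools, which shared fragments. The methods describe keeping only fragments in open chromatin with an ATAC peak at the matching stage. Where that filter was applied, a stage without a peak would hold no fragment in either pool. Its part in these stage differences was not tested because the lists do not say where it was applied.

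Whether the stages differed was tested on log2(positive fragments per 10000 + 1) with limma over the 2 replicates of each stage, adjusting over 7954 gene loci with at least 20 positive fragments. None of the 4 loci that reached this minimum passed, and 0.00% of all loci were called, with 10 at an unadjusted p under 0.05. The adjusted p was 1.00 for *Kdr*, *Flt1*, *Nrp1* and *Nrp2* (limma, 5 stages, 2 replicates each), with unadjusted p of 0.86, 0.97, 0.83 and 0.96. At *Kdr* the 2 replicates of a stage differed on average by 1.30 on this log2 scale, while the stage means spanned 0.88. At *Nrp2* the replicates differed by 2.64 and the stage means spanned 0.73. A constant offset between the replicates counts as spread in this fit. With the replicate number as a block, limma also called 0 of the 7954 loci, and the lowest unadjusted p among the 4 was 0.56.

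The comparison of the positive pool with the Negative gate asks whether fragments of a locus drove the reporter more often than fragments elsewhere did. It was made with an exact conditional test across the 10 sorts as strata, two-sided, over 9259 gene loci with at least 20 fragments. At *Kdr* 79 positive fragments were observed where 78.5 were expected from the pool sizes, a ratio of 1.01, and the odds ratio was 1.03 (95% interval 0.635 to 1.67). At *Flt1* 108 were observed for 111 expected, and the odds ratio was 0.890 (0.591 to 1.34). At *Nrp2* the numbers were 179 and 180, with an odds ratio of 0.963 (0.701 to 1.32). *Nrp1* had the lowest ratio, 109 positive fragments for 118 expected, or 0.925, with an odds ratio of 0.736 (0.517 to 1.05) and an unadjusted exact p of 0.09. *Flt4* (16 for 15.9) and *Vegfa* (16 for 15.9) had wide intervals, 0.343 to 3.01 and 0.244 to 4.78. The adjusted p was 1.00 at all 6 tested loci, so none was called, and genome-wide 0.0756% of loci were called by the same exact test. The median ratio was 0.998 over the 6 loci and 1.00 over all loci tested. Positive was above Negative in 5 of the 9 sorts with *Kdr* fragments, 4 of 9 for *Flt1*, 3 of 10 for *Nrp1* and 2 of 8 for *Nrp2*. Summed over the 7 loci, positive fragments per 10000 were below Negative fragments in all 5 sorts of replicate 2, at 4.43 against 10.7 in ES, 6.55 against 19.7 in HB, 9.20 against 18.0 in HE1, 14.4 against 14.7 in HE2 and 5.76 against 9.37 in HP. In replicate 1 the positive values ran from 14.6 to 18.0 and the Negative values from 16.2 to 19.3. These sums rest on 3 to 32 fragments per pool in replicate 2 and are a description without a test. The upper ends of the intervals, 1.67 at *Kdr* and 1.32 at *Nrp2*, are not firm limits, since the intervals cover counting error alone. They also include fragments counted in both pools, which were 47 of the 67 Negative fragments at the loci in HE1 of replicate 1. No interval was computed without such fragments. On simulated data the test found 11 of 200 loci at an odds ratio of 2, and smaller differences in either direction could not be detected at this depth.

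**Figure D3:**
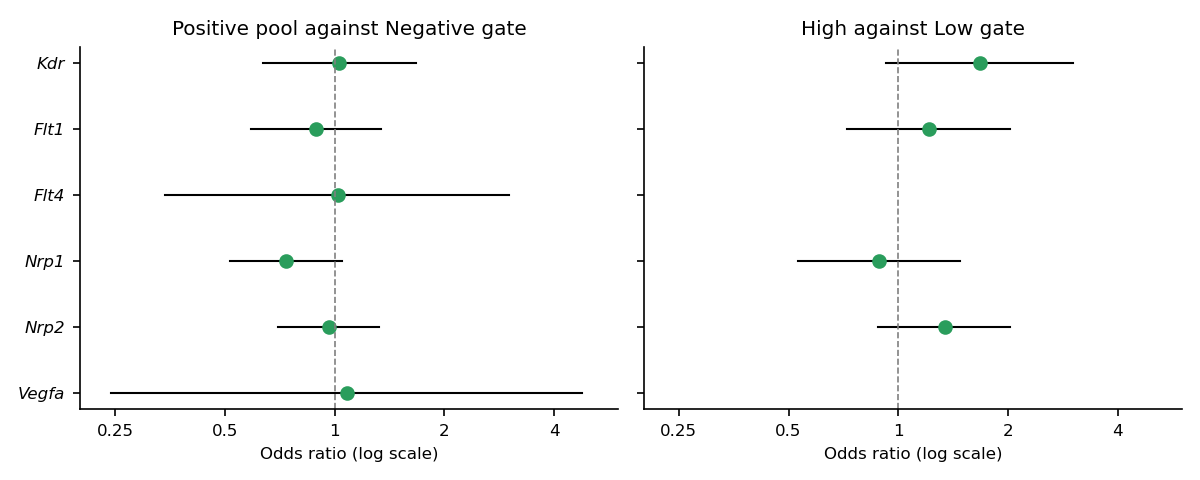
Odds ratio (horizontal axis, log scale) of a fragment lying in the locus, for the positive pool against the Negative gate (left) and the High against the Low gate (right); points are Mantel-Haenszel estimates over the 10 sorts and lines are 95% intervals. Loci with under 20 fragments in a comparison are not drawn. Every line crosses 1, and among the 4 loci of the right panel Kdr lies farthest above it at 1.67.

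The same test on single regions gave the same picture. All 8 large member regions had an adjusted p of 1.00 by the exact test, against 0.199% of 5530 regions called genome-wide. The *Kdr* intron 10 element had 46 positive fragments for 45.5 expected, and the *Nrp1* upstream element 85 for 88.5. The 3 *Nrp2* elements had ratios of 0.968, 0.998 and 1.01, in the order distal, near upstream and intron 1. The *Flt1* regions ranged from 0.865 in intron 10 (31 for 35.8, unadjusted exact p = 0.09) through 0.942 in intron 14 to 1.07 in intron 1. Without HE1 of replicate 1, the sort whose Negative and Medium lists overlapped, the *Kdr* element had a ratio of 1.04 and the locus 0.976. With fragments of both pools left out, *Flt1* intron 10 had a ratio of 0.850 (exact p = 0.0321, adjusted p = 0.679).

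Motif matches of the named elements were held by fragments of both pools, apart from the RBPJ match of *Flt1* intron 1 (5 of 22 positive and 0 of 4 Negative fragments) and 1 ETS match of *Flt4* (2 of 11 and 0 of 1). At *Kdr* intron 10, the GATA match was held whole by 21 of 46 positive fragments (45.7%) and 7 of 12 Negative fragments (58.3%), and the RUNX match by 18 (39.1%) and 5 (41.7%). At *Flt1* intron 10 the GATA match was held by 26 of 31 positive (83.9%) and 9 of 14 Negative fragments (64.3%). At the distal *Nrp2* element the AP-1 match was held by 27 of 53 (50.9%) and 6 of 16 (37.5%). These shares are given as counts, without a test, since fragments of a region overlap. Fragments of the loci were similar in length in both pools, with medians of 169 bp positive and 165 bp Negative in replicate 1, and 266 and 254 bp in replicate 2.

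**Figure D4:**
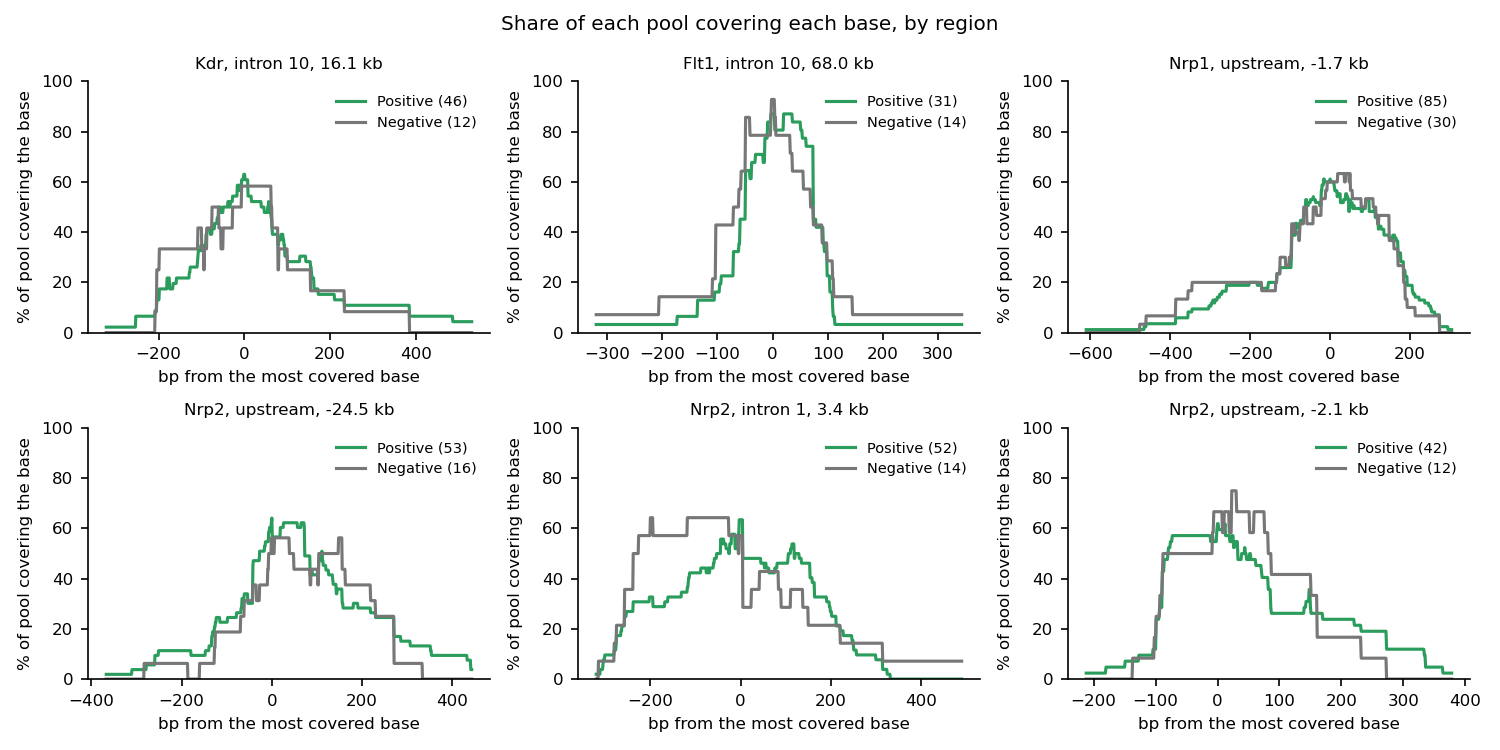
Percent of the fragments of a pool that cover each base (vertical axis) against distance from the most covered base in bp (horizontal axis), for the 6 member regions with at least 45 entries; green lines are the positive pool, grey lines the Negative gate, and the number of fragments is in brackets. At Kdr intron 10, Flt1 intron 10 and upstream of Nrp1 the 2 curves peak within about the same stretch, while at Nrp2 intron 1 the Negative curve of 14 fragments is highest to the left of the most covered base.

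The strength of the reporter was compared by setting the High gate against the Low gate. *Kdr* had 35 High fragments where 28.9 were expected among 51 High and Low fragments, a ratio of 1.21 with an odds ratio of 1.67 (95% interval 0.924 to 3.02). The exact test gave p = 0.08 and an adjusted p of 0.84 over 5875 loci, of which 0.0851% were called. *Nrp2* had 72 for 65.3 (odds ratio 1.34, 0.882 to 2.03, adjusted exact p = 0.94) and *Flt1* 42 for 39.2 (1.21, 0.723 to 2.02). *Nrp1* lay on the other side of 1, with 37 for 38.7 (0.887, 0.530 to 1.48). None of the 4 loci tested was called. The *Kdr* ratio rested on HE2 of replicate 1, where 15 High and 7 Low fragments were found in lists of 18205 and 27370, and it was 0.992 without that sort. Without HE1 of replicate 1, where 11 High and 7 Low fragments came from lists of 39123 and 15458, it was 1.50 (exact p = 0.00580, adjusted p = 0.710).

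Recurrence between replicates was low. Of the 66 regions, 7 held fragments of both replicates, or 10.6%, against 9.28% of all regions, and among the 8 large regions 4 did, or 50.0%, against 55.1% of all regions with at least 20 entries. Identical fragments were found in more than 1 library for 106 of the 536 distinct fragments, or 19.8%, close to the 19.0% of all fragments, and 5 of the 536 were found in both replicates. The most widely recurring fragment was present in 9 libraries.

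Other genes of the pathway were examined as a list of 38, from the ligands *Vegfb*, *Pgf* and *Vegfd* through plexins, semaphorins and angiopoietins to the kinases and calcineurin branch downstream of KDR. Of these, 37 had a fragment and 30 reached the minimum of 20. By the exact test of positive against Negative, 0 passed in either direction, with 1 at an unadjusted p under 0.05 against 394 of all 9259 loci, a median ratio of 1.00 and a range of 0.909 to 1.17. In the High against Low test 0 of 24 passed, with 2 at an unadjusted p under 0.05 against 361 of all 5875 loci, and ratios of 0.765 to 1.28, and over stages 0 of 27 passed by limma.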

How the data were processed

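Tn5-cut fragments recovered from 40 sorted cell populations were analysed as lists of positions, 1 list per stage, gate and replicate. Per the methods and labels, reads were trimmed (Trim Galore) by the authors, who aligned the pairs to mm10 with Bowtie2, kept confidently mapped proper pairs, took the span of each pair as a fragment and reduced repeats to 1. Versions of these tools are not given in the sources used here. The deposited values are start and end positions with no read counts or molecular identifiers. Filters against a background library, for open chromatin of the matching stage and for distance from start sites are described, and which had been applied to the lists is not stated.

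The reference was GRCm38.p6, the assembly that mm10 names, with curated RefSeq transcripts (26178 gene loci). The 36 fragments on scaffolds among 458486 were left out. A fragment present in both pools of a sort counted in both. Loci and regions were tested with an exact conditional test across sorts, the exact form of the Cochran-Mantel-Haenszel test, which treats fragments of a sort as independent, and stages with limma 3.58.1 on R 4.3.3. Windows of neighbouring genes overlap. P-values were adjusted by Benjamini-Hochberg over all loci or regions with at least 20 fragments and called under 0.05. Odds ratios are Mantel-Haenszel estimates with Robins-Breslow-Greenland 95% intervals. A count of 0 was taken to allow 3 counts. The methods describe a transfection followed by differentiation into the stages, and that libraries with the same number share a transfected pool was inferred, not labelled. Of the 106 member fragments found in over 1 library, 5 were in both replicates. The sorts as strata keep replicates apart.

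On simulated data with 200 changed features, the exact test found 150 of 200 loci at an odds ratio of 4 and 11 of 200 at 2 for positive against Negative, 177 and 38 for High against Low, and 121 and 9 for regions. limma found 158 of 200 loci at a 4-fold change. Unchanged features called numbered 0 to 10 for the exact test and 14 for limma. The changed features all held at least 50 fragments, and counts were drawn with counting error alone and no offset between replicates. The limma rate therefore does not describe the stage test on the real data, where replicates differed. Regions named were the leading region of each locus and every member region with at least 20 entries, and smaller regions given in the text were chosen after their values were seen. The loci, the motifs and the pathway list were chosen with earlier results of these data known. Alternatives covered the window, fragment counting, pools, minimum, test, libraries left out and normalization.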

Additional observations from a re-analysis of the deposited data

Results flagged for a closer look

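At *Flt1* the positive pool lay above the Negative gate in both replicates of ES (4 against 1 fragments and 2 against 0) and below it in both replicates of HB (11 against 4 and 1 against 2, relative to their pools) and HP (13 against 3 and 0 against 1). Over all sorts, observed over expected positive fragments came to 0.977. At *Nrp2* the positive pool lay above the Negative gate in both replicates of HE1 (57 against 16 and 6 against 0) and below it in both of HE2 (38 against 6 and 0 against 1) and HP (27 against 6 and 0 against 4), with a ratio of 0.992 over all sorts. Both were picked out because stages ran in opposite directions in every replicate. These differences between stages were not tested, and the counts of replicate 2 were 6 or fewer in each pool.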

How the results depend on the processing

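No member locus or region was called under any alternative tried: 25 for positive against Negative loci, 20 for regions, 18 for High against Low and 21 for stages. The sorts as strata keep replicates apart. With no replicate block, that is with both replicates of a stage pooled, 0 members were called in each comparison, while over all features 6 loci, 28 regions and, for High against Low, 169 loci were called, against 7, 11 and 5. With the replicate block in limma 0 stage calls were made, with 316 loci at an unadjusted p under 0.05 against 10. With no replicate block, *Kdr* came nearest to a call in High against Low (ratio 1.45, exact p = 0.00227, adjusted p = 0.0624). Ratios of positive to expected were close to 1, so several crossed it, and the cause was not tested. Among loci, *Nrp2* moved from 0.992 to 1.00 with a window of 10 kb, 1.01 with the gene body alone, 1.03 with High alone as positive and 1.01 with no replicate block. With a window of 50 kb *Flt4* was 0.992, *Vegfa* 0.968 and *Kdr* 0.998. With no replicate block *Flt4* was 0.977 and *Kdr* 0.991. The limma fit with the sort as block gives a different measure, which is not a ratio to the expected count. It is the fold of positive over Negative rates, averaged over sorts on the log2 scale with a pseudocount of 1. This fold was 0.868 at *Flt4*, 0.754 at *Kdr* and 1.07 at *Flt1*. Among regions, the distal *Nrp2* element was 1.05 with High alone, the near upstream one 1.02 with no replicate block and the intron 1 one 0.984 with fragments of both pools left out. The limma fold was 1.12 at *Flt1* intron 14 and 1.15 at the *Nrp1* upstream element. In High against Low, *Nrp1* was 1.02 with no replicate block. Leaving out 1 sort or replicate gave ranges of 0.949 to 1.01 for *Nrp2*, 1.00 to 1.05 for *Flt4*, 0.976 to 1.03 for *Kdr*, 0.930 to 1.01 for *Flt1* and 0.798 to 0.947 for *Nrp1*. For regions the ranges were 0.985 to 1.04 (*Kdr* intron 10), 0.920 to 1.08 (*Nrp2* intron 1) and 0.956 to 1.03 (*Nrp2* near upstream), and for High against Low 0.992 to 1.50 (*Kdr*), 0.993 to 1.12 (*Flt1*) and 0.939 to 1.02 (*Nrp1*). Motif matches fell from 18 pairs of region and motif to 13 with windows of 200 bases. The stage test without a whole replicate was not run, since 1 sample per stage leaves no residual degrees of freedom. Depth limits all comparisons, with replicate 2 pools as small as 3470 positive and 2726 Negative fragments.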
